A study of Mus musculus with 20 samples.

Results

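Fatty acid and triglyceride synthesis was followed step by step in mouse liver through 39 genes, chosen by symbol and matched to their Ensembl identifiers, of 55573 gene identifiers in the count files. The genes cover the transcriptional regulators, citrate export with acetyl-CoA and NADPH supply, fatty acid synthesis, elongation, desaturation, activation, esterification to glycerol, and remodelling of the stored lipid. All 39 symbols had an identifier, and 37 of the genes passed the filter on low counts and entered the tests, with 13783 genes tested in all. Mogat2 and Pnpla5 did not pass and are described by their reads. Liver RNA was sequenced from 20 mice in 4 groups of 5: Titan and control mice at 11 weeks, and Titan and control mice at 19-21 weeks of age. Titan is the Dummerstorf line bred over many generations for high body mass, and the controls come from the unselected line FZTDU kept beside it. Neither line is inbred, so mice of one group are not genetically identical, and no group carried a transgene or an experimental deletion. The study describes males for this work. Its methods give a standard breeding diet of pellets, freely available, for mice at the breeding institute and standard chow for mice at the phenotyping clinic. They do not say which of these mice gave the livers, or whether the mice were fed at collection.

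Hepatocytes make fatty acids from surplus carbohydrate. Citrate leaves the mitochondrion and is cleaved to acetyl-CoA, which is carboxylated to malonyl-CoA and built by fatty acid synthase into palmitate with reducing power from NADPH. Enzymes of the endoplasmic reticulum then lengthen and desaturate the chain, and the acyl-CoAs are joined to glycerol 3-phosphate until a triglyceride is stored in a lipid droplet or exported. The transcription factors SREBP1c (Srebf1) and ChREBP (Mlxipl) are known to raise many of these genes after feeding, in response to insulin and to sugar metabolites.

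The libraries held between 6794935 and 23295028 reads on genes, with a median of 12547300, and 96.83 to 97.55% of them lay on the sense strand. Values are given as counts per 1000000 reads on genes (CPM) with library sizes scaled by the TMM method, for mice 1 to 5 of each group in the order of their labels. Each mouse was a separate sample. Of the hepatocyte markers, Alb averaged 64960.0 CPM over the 20 mice, whereas of the 7 adipocyte markers Adipoq, Plin1, Retn and Lep had at most 3 reads in any mouse, Cfd at most 57, Fabp4 at most 161 and Lipe at most 215. In bulk liver RNA, fewer cells of a type and less RNA per cell cannot be told apart. Among the Titan mice of 19-21 weeks, mice 1 and 4 stood apart in Scd1, the main stearoyl-CoA desaturase of liver, at 482 and 4272 CPM against 10793 to 14372 CPM in the other three. Mouse 1 was also the shallowest library of all. The calls at 19-21 weeks, and the differences of Srebf1, Thrsp, Acly, Fasn and Scd1 at that age, are therefore also given without both of them.

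At 11 weeks, 12 of the 37 genes were higher in Titan than in control liver and 0 were lower, at an adjusted p under 0.05 in edgeR's quasi-likelihood test with Benjamini-Hochberg adjustment over all genes tested. Over all genes tested, 7.23% were higher and 7.69% were lower in that comparison. The 12 were Me1, Acaca, Fasn, Elovl5, Elovl6, Hsd17b12, Fads2, Acsl3, Gpd1, Gpam, Agpat1 and Pnpla3, so every step except the regulators held at least 1 gene that rose. The median log2 fold change over the 37 genes was 0.44, against -0.02 over all genes tested, and 31 of the 37 values were above 0, as were 47.4% over all genes tested. An unadjusted p under 0.05 was reached by 18 of 37 genes and by 27.5% of all genes tested. Acss2 was the only gene below 0 with an unadjusted p under 0.05, and DESeq2 also called 0 lower. In 14 genes all 5 Titan mice lay above all 5 control mice, which held for 5.84% of all genes tested, and in Acss2 all 5 lay below, which held for 6.08%. The number of genes that rose was between 10 and 16 when any 1 of the 20 mice was left out. The 16 includes Pnpla5, not among the 37, which passed the filter on low counts in that fit only through its reads in young Titan mice. It therefore adds no support.

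At 19-21 weeks only Gpd1 and Agpat1 were higher in Titan liver and Acss2 and Acsl5 were lower, 2 of 37 genes each way, with 4.24% and 4.88% of all genes tested called higher and lower. The median log2 fold change of the 37 genes was -0.13, against 0.01 over all genes tested. Of the 37 values 24 were below 0, against 48.4% of all genes tested, and 7 had an unadjusted p under 0.05, against 24.1%. The groups did not overlap in 1 gene with Titan mice above, Agpat1, and in 1 with Titan mice below, Acsl5, against 3.62% and 4.0% of all genes tested. The higher count was 1 without control mouse 1, 4 or 5 or Titan mouse 2 or 3, when Gpd1 no longer passed. The lower count was 1 without control mouse 1 or 2 or Titan mouse 4, and 0 without Titan mice 1 and 4 together or when only the 10 mice of this age were fitted.

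**Figure D1:**
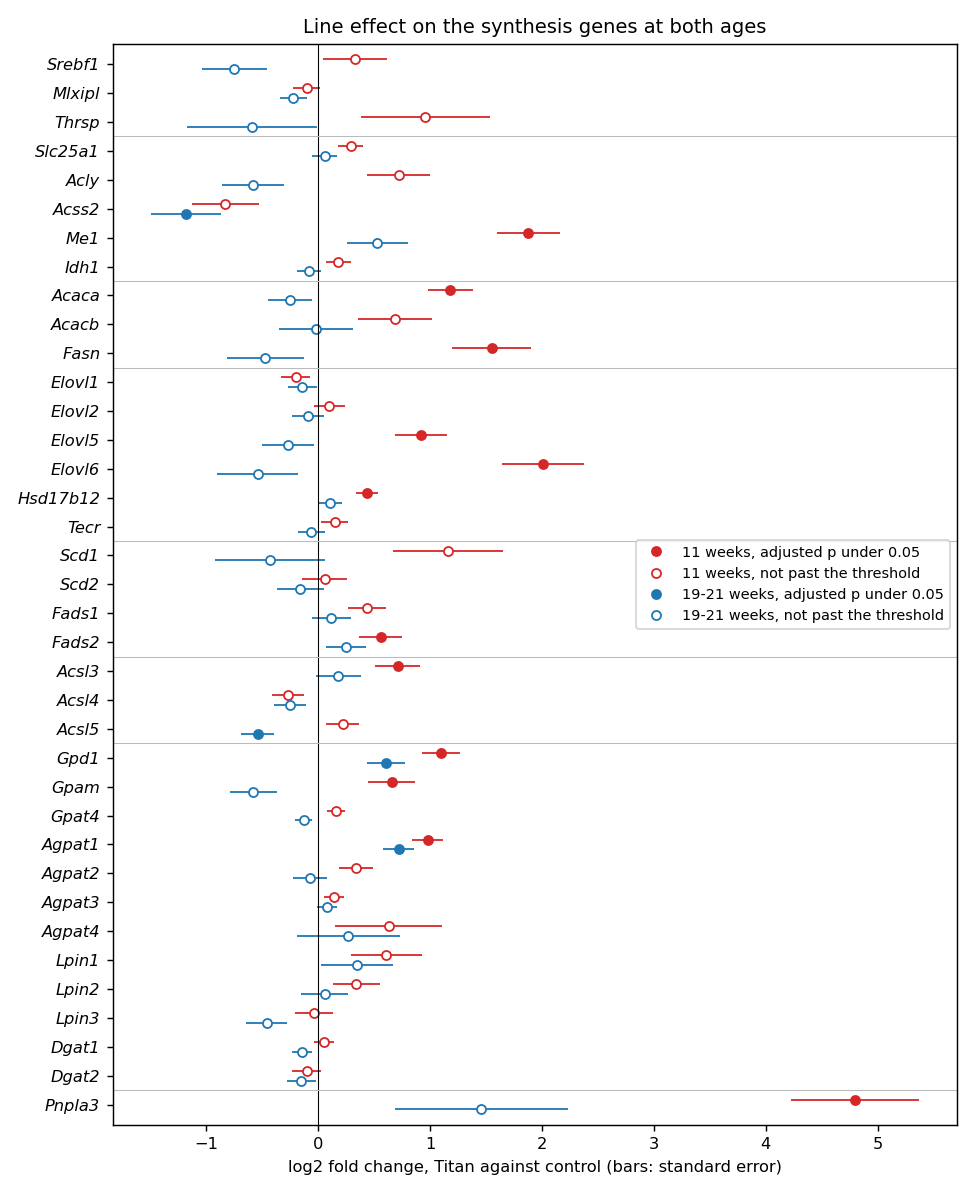
Log2 fold change of Titan against control liver for the 37 tested genes, grouped by step from the regulators at the top to Pnpla3 at the bottom, at 11 weeks (red) and 19-21 weeks (blue). Bars are standard errors and filled points have an adjusted p under 0.05. The 12 filled red points all lie right of 0, while the blue points scatter about 0 with only Gpd1 and Agpat1 filled on the right and Acss2 and Acsl5 on the left.

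The regulators themselves did not pass the test in either line comparison. Srebf1, which encodes SREBP1 (chr11:60199089-60222581 on the minus strand, GRCm38), measured 228, 126, 319.5, 469 and 212 CPM in control mice and 468, 418, 255, 244 and 315 CPM in Titan mice at 11 weeks. At 19-21 weeks its values were 448, 443, 287, 309 and 216 CPM in controls and 173, 209, 229, 125 and 275 CPM in Titan mice. The groups overlapped at both ages, and the spread among the 11-week controls alone ran from 126 to 469 CPM. Srebf1 differed between the lines by 0.33 ± 0.29 (SE, adjusted p = 0.504) on the log2 scale at 11 weeks and by -0.75 ± 0.29 (SE, adjusted p = 0.113) at 19-21 weeks, or -0.52 (adjusted p = 0.414) without Titan mice 1 and 4. Mlxipl, the gene of the sugar-responsive factor ChREBP (chr5:135089890-135138382, plus strand), was among the steadier genes, at 241, 300, 196, 215 and 243 CPM in 11-week controls and 239.8, 179, 206, 269 and 221 CPM in 11-week Titan mice. It measured 322, 284, 249, 250.5 and 309 CPM in the older controls and 226, 239, 249.9, 294 and 208 CPM in the older Titan mice. The line difference of Mlxipl was -0.10 ± 0.12 (SE, adjusted p = 0.662) at 11 weeks and -0.22 ± 0.12 (SE, adjusted p = 0.295) at 19-21 weeks, with overlapping groups both times.

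Thrsp, the gene of the lipogenic protein Spot 14 (chr7:97412938-97417730, minus strand), varied most among the regulators from mouse to mouse. Its CPM was 126, 46.5, 192, 250.1 and 268 in controls and 398, 428, 331, 155 and 401 in Titan mice at 11 weeks, and 183, 677, 234, 188 and 92.1 in controls and 65.2, 467, 139.5, 41.2 and 202 in Titan mice at 19-21 weeks. Young Titan mice 1, 2, 3 and 5 exceeded every young control, and mouse 4 did not. Thrsp differed by 0.96 ± 0.58 (SE, adjusted p = 0.306) at 11 weeks and -0.59 ± 0.58 (SE, adjusted p = 0.570) at 19-21 weeks, neither past the threshold. The value at 19-21 weeks rested on single mice: it was 0.07 without older control 2, -1.3 without older Titan mouse 2 and -0.03 without Titan mice 1 and 4.

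In the supply of carbon and reducing power, Me1 stood out. Me1 encodes the cytosolic malic enzyme, which yields NADPH (chr9:86581371-86695953, minus strand), and measured 101, 109.7, 165, 113 and 169 CPM in controls and 539.5, 592, 474, 232 and 581 CPM in Titan mice at 11 weeks. The older animals gave 148, 108, 141, 163 and 129 CPM in controls and 77.3, 287, 254, 166 and 206 CPM in Titan mice. All 5 young Titan mice were above all young controls, whereas at 19-21 weeks Titan mouse 1 was below every control and the groups overlapped. Me1 rose by 1.88 ± 0.28 (SE, adjusted p = 0.000109) at 11 weeks, and its difference at 19-21 weeks was 0.53 ± 0.27 (SE, adjusted p = 0.248). Leaving out the older Titan mice 1 and 4 together brought Me1 past the threshold at 19-21 weeks as well.

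Acly, the ATP citrate lyase that turns cytosolic citrate into acetyl-CoA (chr11:100476353-100528000, minus strand), measured 292, 313, 576, 740.1 and 807 CPM in young controls and 1201, 974, 742, 581 and 1000.3 CPM in young Titan mice. At 19-21 weeks it measured 659, 616, 311, 594 and 570.5 CPM in controls and 216, 473, 404, 312 and 429 CPM in Titan mice. Young Titan mice 1, 2 and 5 were above every young control, and mice 3 and 4 were within the control range. Acly differed by 0.72 ± 0.28 (SE, adjusted p = 0.0942) at 11 weeks and -0.58 ± 0.28 (SE, adjusted p = 0.210) at 19-21 weeks, neither past the threshold, although DESeq2 called the former with an adjusted p of 0.0481. Without Titan mice 1 and 4 the latter was -0.34 (adjusted p = 0.600).

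Acss2 went the other way. It encodes the acetyl-CoA synthetase that uses acetate (chr2:155517948-155585724, plus strand) and measured 262, 295, 359.8, 507 and 436 CPM in young controls and 258, 209, 229, 199 and 149 CPM in young Titan mice. At 19-21 weeks the values were 337, 465, 219.6, 374 and 403 CPM in controls and 79.1, 239.6, 148, 66.2 and 258 CPM in Titan mice. Every young Titan mouse was below every young control, and the older groups overlapped, with Titan mice 1 and 4 the lowest of all 20 animals. Acss2 differed by -0.83 ± 0.30 (SE, adjusted p = 0.0729) at 11 weeks and fell by 1.18 ± 0.31 (SE, adjusted p = 0.0186) at 19-21 weeks. Without the older Titan mice 1 and 4 the latter difference was -0.74 with an adjusted p of 0.105. Slc25a1, the mitochondrial citrate carrier, was above the control range in all 5 young Titan mice at 216 to 242 against 169 to 202 CPM, with a log2 difference of 0.29 ± 0.11 (SE, adjusted p = 0.0963) that did not pass. Idh1, another cytosolic source of NADPH, ranged from 508 to 713 CPM in young controls and from 611 to 717 CPM in young Titan mice.

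Fatty acid synthesis proper is carried by 3 of the genes. Fasn, the fatty acid synthase (chr11:120805846-120824547, minus strand), measured 724, 394, 1112, 1427 and 894 CPM in young controls and 4117, 3219, 2058, 1467 and 2473 CPM in young Titan mice. At 19-21 weeks it measured 1623, 1722, 694, 1279 and 796 CPM in controls and 456, 1103, 1066, 640.3 and 1137 CPM in Titan mice. The young groups did not overlap, though Titan mouse 4 was close to control mouse 4, and in the older animals no Titan mouse was above the control range. Fasn rose by 1.55 ± 0.35 (SE, adjusted p = 0.00401) at 11 weeks, a fold of 2.93, and differed by -0.47 ± 0.34 (SE, adjusted p = 0.419) at 19-21 weeks, or -0.15 (adjusted p = 0.878) without Titan mice 1 and 4. Acaca, the cytosolic acetyl-CoA carboxylase that makes malonyl-CoA for this reaction (chr11:84129672-84401651, plus strand), was nearly constant among controls, at 70.0, 63.4, 69.1, 77 and 67.5 CPM at 11 weeks and 85.7, 78.3, 69.3, 81.3 and 73.9 CPM at 19-21 weeks. Titan mice gave 234, 205, 114, 81.2 and 153 CPM at 11 weeks and 46.3, 77.4, 74.7, 57.3 and 70.4 CPM at 19-21 weeks. All 5 young Titan values were above all controls of that age, and the older Titan mice lay within or below their control range. The line difference of Acaca was 1.18 ± 0.20 (SE, adjusted p = 0.000396) at 11 weeks and -0.25 ± 0.20 (SE, adjusted p = 0.476) at 19-21 weeks. Acacb, the carboxylase at the mitochondrial surface whose malonyl-CoA restrains fatty acid oxidation, was likewise above the control range in all 5 young Titan mice, at 357 to 523 against 195 to 353 CPM, but its log2 difference of 0.69 ± 0.33 (SE, adjusted p = 0.182) did not pass the test.

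**Figure D2:**
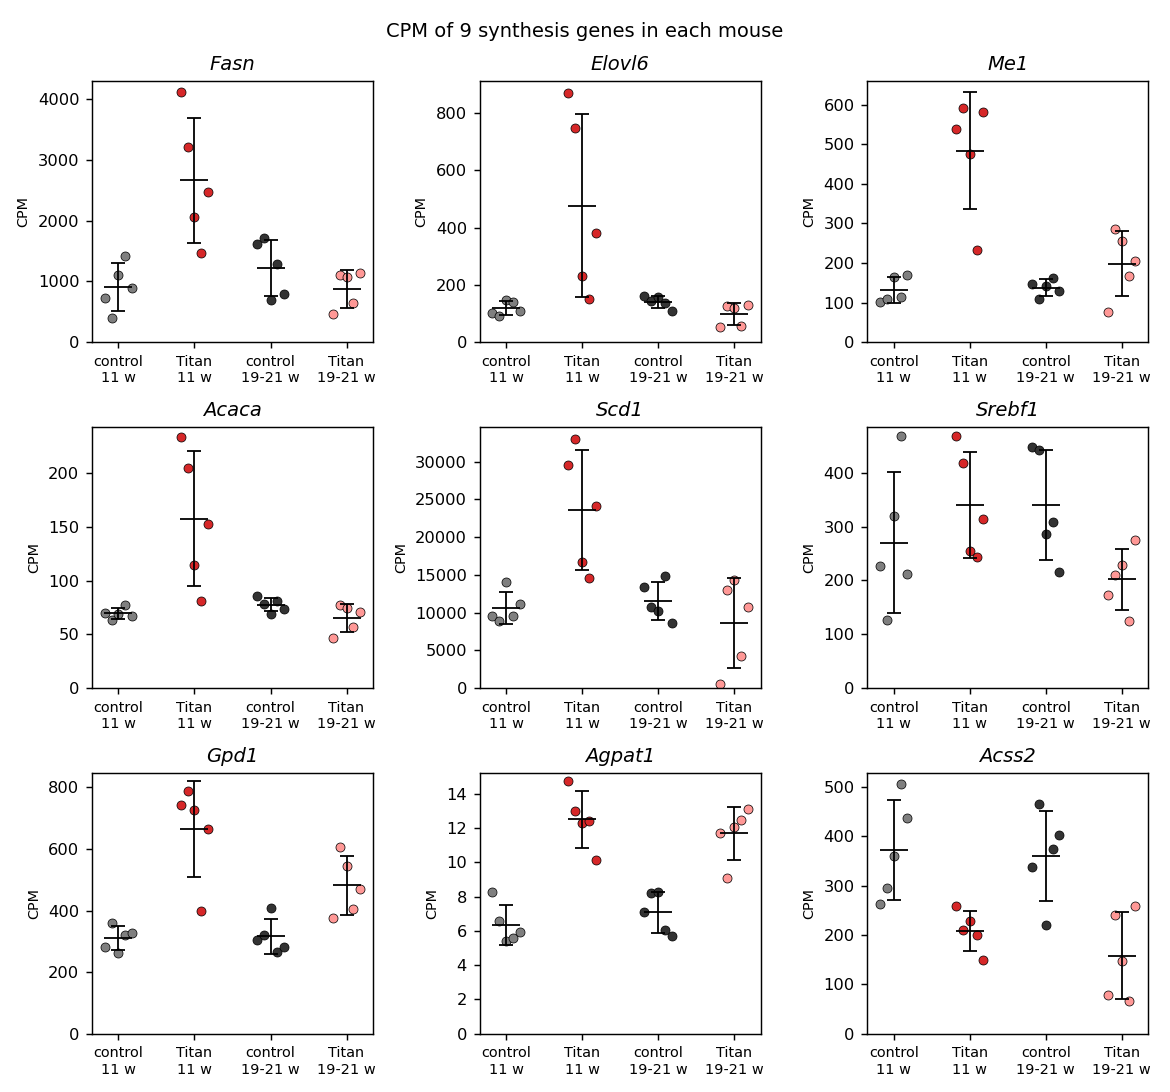
CPM of 9 genes in every mouse (points, mice 1 to 5 from left to right in each group), with the mean and SD of each group of 5 (black bars); axes start at 0. Fasn, Elovl6, Me1, Acaca, Scd1 and Gpd1 were higher in all 5 Titan mice than in all 5 controls at 11 weeks, Agpat1 and Gpd1 were called higher at both ages, and Srebf1 overlapped at both ages.

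Among the elongation genes Elovl6 showed the largest difference. Elovl6 adds 2 carbons to palmitate and so leads to stearate (chr3:129532355-129638495, plus strand), and it measured 103, 92.0, 147, 140.1 and 109 CPM in young controls and 872, 750.0, 231, 149 and 381 CPM in young Titan mice. The older groups gave 161, 144, 159, 137 and 108 CPM in controls and 52.2, 128, 119.8, 57.9 and 129 CPM in Titan mice. Titan mice 1 and 2 were far above all other young animals and mouse 4 was only just above the highest control. Elovl6 rose by 2.01 ± 0.37 (SE, adjusted p = 0.000825) at 11 weeks, a fold of 4.03, and differed by -0.54 ± 0.36 (SE, adjusted p = 0.384) at 19-21 weeks. Elovl5, which lengthens polyunsaturated chains (chr9:77917364-77984519, plus strand), measured 812, 986, 1216, 1006 and 973 CPM in young controls and 2208, 2271, 1459, 1366 and 2143 CPM in young Titan mice. At 19-21 weeks its CPM was 1240.2, 1066, 985, 1416 and 974 in controls and 453, 1331, 1133, 639 and 1170.2 in Titan mice. The young groups were separate, and among the older Titan mice 1 and 4 were below all controls. Elovl5 rose by 0.92 ± 0.23 (SE, adjusted p = 0.00890) at 11 weeks and differed by -0.27 ± 0.23 (SE, adjusted p = 0.511) at 19-21 weeks.

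Hsd17b12, the ketoacyl-CoA reductase of the elongation cycle (chr2:94032689-94157964, minus strand), measured 203, 189, 219.7, 200.3 and 200.4 CPM in young controls and 296, 322, 251, 228 and 279 CPM in young Titan mice, again with no overlap. The older controls had 201, 174, 189, 208 and 166 CPM and the older Titan mice 180.0, 238, 197, 184 and 209.7 CPM, which overlapped. Hsd17b12 rose by 0.44 ± 0.10 (SE, adjusted p = 0.00308) at 11 weeks and differed by 0.11 ± 0.10 (SE, adjusted p = 0.538) at 19-21 weeks. The remaining elongation genes did not pass in either line comparison: Tecr, the last enzyme of the cycle, differed by 0.15 ± 0.12 at 11 weeks, Elovl2, which acts on long polyunsaturated chains, by 0.10 ± 0.14, and Elovl1, which serves saturated very long chains, by -0.20 ± 0.13.

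The 250 bases before the annotated start of transcription were read from RefSeq for GRCm38.p6 for 31 of the 39 genes, in 43 windows, and searched on both strands for 4 short motifs known from lipogenic promoters. The sterol element TCACNCCAC, the E-box CACGTG, the CCAAT box and the GC box GGGCGG were found in 2.33%, 11.6%, 51.2% and 60.5% of these windows. Of all 32851 windows in the RefSeq table, 1.05%, 6.02%, 33.8% and 32.7% held them. The sterol element was found in 1 window only, at a start site of Mlxipl. A match is a description of letters and no match says only that these letters were not in the window. The windows of 3 genes that rose at 11 weeks are printed, with matches in capitals (ATTGG is the CCAAT box read on the other strand). Fasn held 3 CCAAT matches, of which 2 overlap, Elovl5 held an E-box and 2 CCAAT matches, and Elovl6, the gene with the largest rise among the elongation genes, held none of the 4. The windows are chr11:120824548-120824797 (minus strand) for Fasn, chr9:77917115-77917364 (plus strand) for Elovl5 and chr3:129532136-129532385 (plus strand) for Elovl6.
Fasn: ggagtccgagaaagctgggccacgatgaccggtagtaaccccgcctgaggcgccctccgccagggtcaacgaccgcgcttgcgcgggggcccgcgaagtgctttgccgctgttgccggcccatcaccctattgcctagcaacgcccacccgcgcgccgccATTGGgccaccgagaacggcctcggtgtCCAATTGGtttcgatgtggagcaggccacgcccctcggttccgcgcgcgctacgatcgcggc
Elovl5: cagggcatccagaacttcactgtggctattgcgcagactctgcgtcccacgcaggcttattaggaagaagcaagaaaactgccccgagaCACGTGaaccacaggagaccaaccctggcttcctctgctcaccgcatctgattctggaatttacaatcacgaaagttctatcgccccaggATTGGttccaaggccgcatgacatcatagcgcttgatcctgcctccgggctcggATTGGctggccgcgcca
Elovl6: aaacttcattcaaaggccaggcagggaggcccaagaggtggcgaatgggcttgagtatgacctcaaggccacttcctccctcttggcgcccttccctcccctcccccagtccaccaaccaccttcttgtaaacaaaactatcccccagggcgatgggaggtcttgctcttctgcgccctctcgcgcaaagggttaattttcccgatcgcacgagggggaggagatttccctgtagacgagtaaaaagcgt

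Desaturation was dominated by Scd1, which introduces the double bond of oleate and palmitoleate (chr19:44394455-44407879, minus strand). It measured 9503, 8917, 13991, 9486 and 11097 CPM in young controls and 29616, 33012, 16766, 14569.8 and 24175 CPM in young Titan mice, and no young Titan value was within the control range. In the older animals it measured 13388, 10802, 10181, 14819.7 and 8621 CPM in controls and 482, 13052, 14372, 4272 and 10793 CPM in Titan mice. Titan mouse 1 was far below every control, mouse 4 was also below all of them, and the other three lay within the control range. The line difference of Scd1 was 1.16 ± 0.49 (SE, adjusted p = 0.127) at 11 weeks and -0.43 ± 0.49 (SE, adjusted p = 0.634) at 19-21 weeks. Without both of these mice the difference at 19-21 weeks was 0.14 (adjusted p = 0.811), so its sign turned. The call at 11 weeks depended on the tool and on the mice fitted: DESeq2 called Scd1 higher with all 20 mice (adjusted p = 0.0159), without the older Titan mouse 1 in the shared fit, Scd1 rose by 1.16 with an adjusted p of 0.00641, and with only the young mice fitted the adjusted p was 0.00416. Scd2, a desaturase known mainly from other tissues, stayed between 4.13 and 10.4 CPM in all 20 mice.

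Fads2, the delta-6 desaturase of polyunsaturated fatty acids (chr19:10062765-10101746, minus strand), measured 410.1, 292, 389.9, 441 and 374 CPM in young controls and 788, 511, 513, 448 and 557 CPM in young Titan mice. The older controls had 328, 449, 332, 511 and 411 CPM and the older Titan mice 310.3, 566, 615, 372 and 546 CPM. The young groups were separate by a narrow margin, and the older groups overlapped. Fads2 rose by 0.56 ± 0.19 (SE, adjusted p = 0.0450) at 11 weeks and differed by 0.25 ± 0.18 (SE, adjusted p = 0.439) at 19-21 weeks. Its call at 11 weeks was lost in 9 of 20 fits with 1 mouse left out, namely without the older control 5, young control 1, 2, 3 or 5, or young Titan mouse 1, 2, 3 or 5, with adjusted p up to 0.152. Fads1, its partner delta-5 desaturase, differed by 0.44 ± 0.17 (SE, adjusted p = 0.0824) at 11 weeks.

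Of the acyl-CoA synthetases, which activate fatty acids for further use, Acsl3 rose at 11 weeks, Acsl5 was lower at 19-21 weeks and Acsl4 did not pass at either age. Acsl3, found at the endoplasmic reticulum and lipid droplets (chr1:78657825-78707743, plus strand), measured 42.3, 20.5, 43.9, 42.6 and 24.5 CPM in young controls and 54.2, 58.5, 62.8, 61.5 and 48.4 CPM in young Titan mice, with all Titan mice above the controls. At 19-21 weeks it measured 40.5, 45.1, 27.7, 36.4 and 45.0 CPM in controls and 52.2, 45.3, 35.5, 31.6 and 55.7 CPM in Titan mice, which overlapped. Acsl3 rose by 0.71 ± 0.20 (SE, adjusted p = 0.0176) at 11 weeks and differed by 0.18 ± 0.20 (SE, adjusted p = 0.622) at 19-21 weeks, and without young control 5 the adjusted p at 11 weeks was 0.0511. Its exons overlap those of Utp14b on the same strand. Acsl5 (chr19:55251938-55297720, plus strand) measured 451, 444, 558, 565 and 518 CPM in young controls and 640.4, 632, 557, 493 and 637 CPM in young Titan mice, and 558, 568, 529.7, 525 and 490.1 CPM in older controls and 218, 474, 420.4, 324 and 405 CPM in older Titan mice. The young groups overlapped, and every older Titan mouse was below every older control. Acsl5 differed by 0.22 ± 0.15 (SE, adjusted p = 0.348) at 11 weeks and by -0.54 ± 0.15 (SE, adjusted p = 0.0246) at 19-21 weeks, which without Titan mice 1 and 4 became -0.30 with an adjusted p of 0.124. Acsl4, which prefers arachidonate, did not pass at either age, with log2 differences of -0.27 ± 0.14 and -0.25 ± 0.14.

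Esterification held the 2 genes that were higher in Titan liver at both ages. Agpat1, a lysophosphatidate acyltransferase that forms phosphatidate (chr17:34604262-34613449, plus strand), measured 8.27, 6.58, 5.40, 5.61 and 5.93 CPM in young controls and 14.7, 13, 12.3, 12.4 and 10.1 CPM in young Titan mice. At 19-21 weeks it measured 7.12, 8.21, 8.26, 6.06 and 5.70 CPM in controls and 11.7, 9.09, 12.0, 12.5 and 13.1 CPM in Titan mice. The lines were separate at each age, and Agpat1 was the only gene of the 37 for which this held in the older mice in the higher direction. Agpat1 rose by 0.98 ± 0.14 (SE, adjusted p = 7.2e-05) at 11 weeks and by 0.72 ± 0.14 (SE, adjusted p = 0.00311) at 19-21 weeks. Both calls were kept in all 20 fits with 1 mouse left out, with adjusted p of at most 0.000356 and 0.0110. Agpat1 was expressed at a low level, with 46 to 241 reads per mouse, and its exons overlap those of Egfl8 on the other strand, whose reads the sense-strand counts leave out.

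Gpd1, the dehydrogenase that makes the glycerol 3-phosphate backbone (chr15:99717515-99725005, plus strand), measured 282, 360.3, 263, 322 and 327 CPM in young controls and 744, 789, 727, 398 and 664 CPM in young Titan mice. The older controls had 305, 319, 409, 266 and 282 CPM and the older Titan mice 377, 608, 546, 407 and 469.8 CPM. All young Titan mice were above the controls, and at 19-21 weeks control mouse 3 reached into the Titan range. Gpd1 rose by 1.10 ± 0.17 (SE, adjusted p = 0.000137) at 11 weeks and by 0.61 ± 0.17 (SE, adjusted p = 0.0251) at 19-21 weeks. Without Titan mice 1 and 4 the values at 19-21 weeks were 0.77 for Gpd1 (adjusted p = 0.0166) and 0.68 for Agpat1 (adjusted p = 0.0266). Gpam, the mitochondrial glycerol-phosphate acyltransferase that starts the pathway (chr19:55067268-55127238, minus strand), measured 402, 294, 550.4, 688 and 553 CPM in young controls and 899, 846, 746, 639.8 and 813 CPM in young Titan mice, with Titan mouse 4 inside the control range. At 19-21 weeks the values were 724, 845, 459, 697 and 472 CPM in controls and 319.6, 624, 385, 381 and 427 CPM in Titan mice. Gpam rose by 0.66 ± 0.21 (SE, adjusted p = 0.0397) at 11 weeks, a call lost in 8 of the 20 fits with 1 mouse left out (young control 1, 2, 3 or 5, or young Titan mouse 1, 2, 3 or 5), and differed by -0.58 ± 0.21 (SE, adjusted p = 0.0934) at 19-21 weeks.

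The last step, the joining of the final acyl chain by the diacylglycerol acyltransferases, did not pass the test in either line comparison. Dgat2 (chr7:99153658-99182719, minus strand) measured 326, 284, 311, 303 and 291 CPM in young controls and 355, 274, 273, 247 and 270.2 CPM in young Titan mice. The older groups gave 308, 447, 287, 277 and 265 CPM in controls and 302, 311, 267, 233 and 319.9 CPM in Titan mice, with overlap at both ages. Dgat2 differed by -0.10 ± 0.13 (SE, adjusted p = 0.691) at 11 weeks and -0.15 ± 0.13 (SE, adjusted p = 0.522) at 19-21 weeks, and Dgat1 by 0.05 ± 0.09 (SE, adjusted p = 0.786) and -0.14 ± 0.09 (SE, adjusted p = 0.399). The other tested esterification genes, Gpat4, Agpat2, Agpat3, Agpat4 and the phosphatidate phosphatases Lpin1, Lpin2 and Lpin3, did not pass in either line comparison, with log2 differences between -0.04 ± 0.17 and 0.63 ± 0.48 at 11 weeks and between -0.46 ± 0.18 and 0.35 ± 0.32 at 19-21 weeks. Mogat2, a monoacylglycerol acyltransferase best known from intestine, had at most 10 reads in any mouse. Its reads summed to 24 in young Titan mice and 5 in young controls, a ratio of 4.80 with an exact 95% interval of 1.80 to 16.1 that covers counting error only.

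Pnpla3 and Pnpla5 had the largest contrasts of all. Pnpla3 encodes a lipid droplet protein of the patatin-like family that hydrolyses and remodels stored lipid (chr15:84167837-84187236, plus strand), and in young controls it was barely detected, at 0.337, 0.167, 1.98, 0.854 and 0.483 CPM. In young Titan mice it measured 43.0, 21.7, 11.9, 11.5 and 30.2 CPM. The older controls had 1.54, 0.361, 0, 0.264 and 0.587 CPM and the older Titan mice 0.136, 2.34, 1.22, 1.18 and 2.12 CPM. The lowest young Titan value was above every value in the other three groups. Pnpla3 rose by 4.80 ± 0.57 (SE, adjusted p = 1.0e-05) at 11 weeks and differed by 1.46 ± 0.77 (SE, adjusted p = 0.255) at 19-21 weeks, with 2 to 40 reads per mouse in young controls and 116 to 718 in young Titan mice. Its exons overlap those of Gm49513 on the same strand.

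Pnpla5, a related lipid droplet hydrolase, lies upstream of Pnpla3 on the other strand (chr15:84112356-84123175). It had 90, 71, 39, 7 and 123 reads in young Titan mice 1 to 5 and 7 reads in the 5 young controls together. This is a ratio of 47.2, with an exact 95% interval of 22.6 to 118 for counting error. In the older mice the sums were 12 reads in Titan mice and 2 in controls. In CPM every young Titan mouse was above every other animal, with mouse 4 (0.695 CPM) just above the older Titan mouse 5 (0.595 CPM). Without the filter on low counts, Pnpla5 was higher at 11 weeks by 5.37 ± 0.61 (SE, adjusted p = 3.6e-07). Since both genes of this chromosome region were high in the same mice, their windows of 250 bases are printed, chr15:84167566-84167815 (plus strand) for Pnpla3 and chr15:84123176-84123425 (minus strand) for Pnpla5, with the same motifs in capitals. Pnpla3 held 1 CCAAT and 2 GC box matches, and Pnpla5 held 1 E-box, 2 CCAAT and 1 GC box match.
Pnpla3: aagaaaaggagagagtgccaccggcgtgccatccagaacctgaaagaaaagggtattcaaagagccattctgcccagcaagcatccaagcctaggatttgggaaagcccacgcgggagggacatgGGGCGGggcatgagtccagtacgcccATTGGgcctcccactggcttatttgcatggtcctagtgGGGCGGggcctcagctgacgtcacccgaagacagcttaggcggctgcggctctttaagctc
Pnpla5: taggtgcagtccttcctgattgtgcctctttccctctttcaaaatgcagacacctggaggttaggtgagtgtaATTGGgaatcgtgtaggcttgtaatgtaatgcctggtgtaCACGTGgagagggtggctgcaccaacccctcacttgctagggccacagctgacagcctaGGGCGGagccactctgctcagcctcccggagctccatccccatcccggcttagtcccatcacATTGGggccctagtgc

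Levels of different genes were compared per length, as CPM divided by exon length in kilobases (RPKM). Scd1 was by far the most abundant transcript, at 2167 ± 422 RPKM (SD, n = 5) in young controls, followed by Elovl5 at 283 ± 40.9 RPKM, Idh1 at 216 ± 29.5 RPKM and Elovl2 at 197 ± 36.6 RPKM. Idh1 and Elovl2 did not differ beyond their spread. In young Titan mice Scd1 reached 4829.9 ± 1627 RPKM and Elovl5 536 ± 125 RPKM, while Fasn, with 83.2 ± 35.7 RPKM in young controls, stood at 244 ± 94.2 RPKM beside Idh1 at 246 ± 15.4 RPKM and Gpd1 at 224 ± 52.6 RPKM, none of which differed from its neighbours beyond the spread. The carboxylase Acaca remained low per length, at 9.23 ± 3.68 RPKM in young Titan mice against 45.1 ± 6.72 RPKM for Acacb. Agpat1 had 4.17 ± 0.552 RPKM in young Titan mice, against 105 ± 15.4 RPKM for Agpat2. Scd2, Lpin3, Agpat4, Mogat2 and Pnpla5 were below 2 RPKM in every group mean. Summed over the 39 genes, reads made up 2.56 to 4.98% of the scaled library in young Titan mice and 1.66 to 2.43% in young controls, of which Scd1 alone gave 1.46 to 3.30% and 0.892 to 1.40%.

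Within a group the genes tended to be high or low in the same animals. Among young Titan mice, mouse 1 had the highest CPM in 20 of the 37 genes, against 23.5% of all genes tested, and mouse 4 the lowest in 24, against 24.7%. Young control 2 was the lowest of its group in 20 of 37 genes, against 21.6% of all genes. Among the older Titan mice, mouse 1 was lowest in 23 of 37, against 21.4% of all genes. Relative to the mean of the 10 controls, the median log2 ratio over the 37 genes was 0.55, 0.37, 0.26, 0.14 and 0.39 in young Titan mice 1 to 5 and ranged from -0.22 to 0.12 in young controls. It was -0.41, 0.05, -0.01, -0.14 and 0.00 in older Titan mice 1 to 5 and -0.12 to 0.11 in older controls. The genes are not replicates of one another, so these values describe the animals and were not tested.

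**Figure D3:**
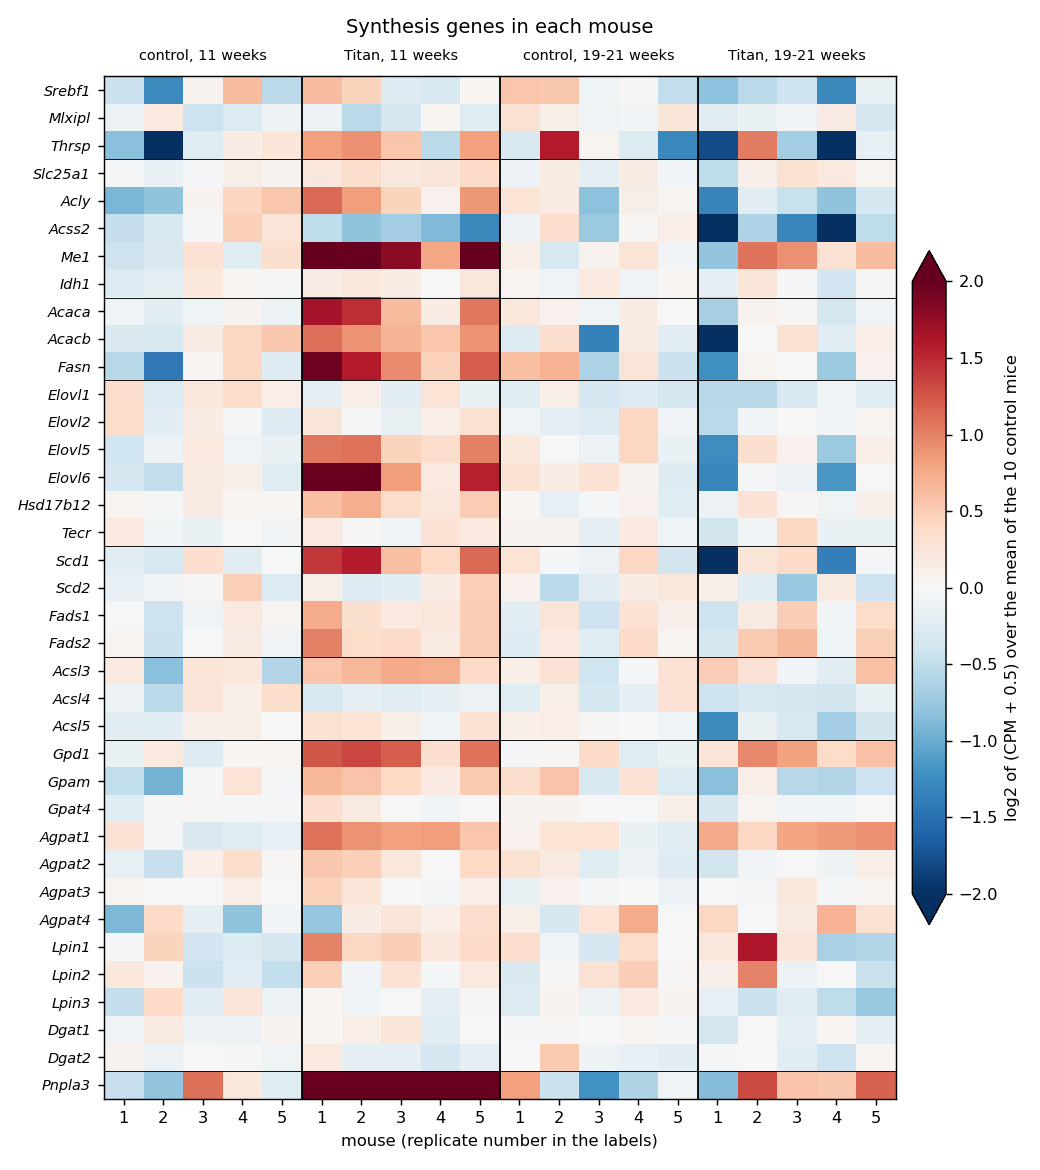
Log2 ratio of CPM (with 0.5 added) to the mean of the 10 control mice, for the 37 tested genes (rows, by step) in each of the 20 mice (columns, by group and replicate number); colours stop at 2 in either direction. Red is concentrated in the young Titan columns, least in mouse 4, and the older Titan mice 1 and 4 are blue in Scd1, Acss2, Elovl6 and Fasn.

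Between 11 and 19-21 weeks, 10 of the 37 genes were lower in the older Titan mice and 0 were higher, while 0.762% of all genes tested were lower and 0.486% higher. The 10 were Acly, Me1, Acaca, Fasn, Elovl5, Elovl6, Hsd17b12, Acsl5, Gpam and Pnpla3. The median log2 fold change of the 37 genes was -0.37, against 0.02 over all genes tested, and 33 of 37 were below 0, against 46% of all genes tested. An unadjusted p under 0.05 was reached by 18 of 37 genes and 15.6% of all genes tested. None of the 4 genes above 0 had an unadjusted p under 0.05, and DESeq2 also called 0 higher. This comparison shares the young Titan mice with the line comparison at 11 weeks, so both rest on the same 5 animals. Pnpla3 fell by 4.01 ± 0.56 (SE, adjusted p = 0.00249), Elovl6 fell by 2.29 ± 0.38 (adjusted p = 0.00660) and Acaca by 1.27 ± 0.20 (adjusted p = 0.00646), and these 3 calls were kept with any 1 mouse left out. Fasn fell by 1.60 ± 0.35 (adjusted p = 0.0297), Acly by 1.29 ± 0.29 (adjusted p = 0.0311) and Me1 by 1.29 ± 0.28 (adjusted p = 0.0284). Elovl5 fell by 1.0 ± 0.23 (adjusted p = 0.0376), Gpam by 0.88 ± 0.21 (adjusted p = 0.0463), Acsl5 by 0.68 ± 0.15 (adjusted p = 0.0284) and Hsd17b12 by 0.45 ± 0.10 (adjusted p = 0.0284). The count depended on single libraries: it was 3 without young Titan mouse 1, 2 or 5. Without older Titan mouse 1 it was 5 (Elovl6, Acaca, Pnpla3, Acsl5 and Pnpla5). Without older Titan mouse 4 it was 4 (Elovl6, Acaca, Pnpla3 and Pnpla5). Without both older Titan mice 1 and 4 it was 2, Pnpla3 and Pnpla5. Pnpla5, not among the 37, passed the filter on low counts in these fits only through its reads in young Titan mice, the group where it is high. Its calls there therefore add no support, and of the 37 genes only Pnpla3 passed without both older Titan mice 1 and 4. In the fit without both, Acaca was at -1.09 (adjusted p = 0.0520), Elovl6 at -1.93 (adjusted p = 0.0589) and Fasn at -1.28 (adjusted p = 0.193). In 10 genes all older Titan mice lay below all young ones, which held for 1.56% of all genes tested, and in 0 genes they lay above, which held for 1.41%. Agpat1 differed by -0.09 ± 0.14 (SE, adjusted p = 0.797) and Dgat2 by 0.01 ± 0.13 (SE, adjusted p = 0.973) with age in Titan liver.

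In control liver 0 of the 37 genes passed in either direction, with 0.0435% of all genes tested called each way. DESeq2 also called 0, and 1 gene, Elovl1, had an unadjusted p under 0.05, against 6.15% of all genes tested. Of the 37 values 12 were below 0, against 49.8%. In controls Fasn averaged 910.4 ± 390.4 and 1223 ± 467 CPM (SD, n = 5), Acaca 69.4 ± 4.96 and 77.7 ± 6.35 CPM, and Elovl6 118 ± 24.1 and 142 ± 21.3 CPM at 11 and 19-21 weeks.

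Whether the line effect itself differed between the ages was tested as an interaction. In edgeR 0 of 37 genes passed, with 0.00726% of all genes tested called lower and none higher. The values leaned one way: 35 of 37 were below 0, against 46.8% of all genes tested, with a median of -0.35 against 0.02 over all genes tested, and 14 of 37 had an unadjusted p under 0.05, against 8.92% of all genes tested. The lowest adjusted p was 0.0905, for Elovl6 at -2.55 ± 0.52 and Acaca at -1.43 ± 0.28. Fasn was at -2.02 ± 0.49 (SE, adjusted p = 0.178) and Scd1 at -1.58 ± 0.69 (SE, adjusted p = 0.509). DESeq2 called 7 genes lower, Elovl6, Elovl5, Me1, Acaca, Fasn, Gpam and Acsl5, and edgeR called Elovl6 and Acaca without young Titan mouse 4. Without the filter on low counts edgeR called Elovl6, Acaca and Fasn. The calls for a changed line effect therefore depended on the tool, the filter and 1 library.

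Genes beside the pathway were read from lists chosen by function. Over all genes tested, 7.23% were called higher and 7.69% lower at 11 weeks, and 4.24% and 4.88% at 19-21 weeks. With age in Titan liver the shares were 0.486% higher and 0.762% lower. Of 19 tested genes that supply NADPH and carbon, 8 were higher and 1 was lower in Titan liver at 11 weeks. Slc25a10, the mitochondrial dicarboxylate carrier, rose by 1.18 ± 0.17 (SE, adjusted p = 8.1e-05) and Pgd of the pentose phosphate pathway by 0.92 ± 0.20 (adjusted p = 0.00328), while the mitochondrial malic enzyme Me2 fell by 0.74 ± 0.21 (adjusted p = 0.0195). At 19-21 weeks 0 were higher and 1, Mdh1, was lower, and 4 fell with age in Titan liver, among them Pklr, the liver pyruvate kinase, at -1.29 ± 0.28 and Pgd at -0.92 ± 0.20. In controls and as an interaction 0 of this list passed. As an interaction 11 of 19 had an unadjusted p under 0.05, against 8.92% of all genes tested.

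Of 14 other tested enzymes of fatty acid synthesis, elongation and activation, 0 were higher and 3 lower at 11 weeks, against 7.23% and 7.69% of all genes tested. Oxsm, of the separate mitochondrial synthesis pathway, fell by 0.52 ± 0.09 (adjusted p = 0.000622), the elongase Elovl3 by 2.08 ± 0.45 (adjusted p = 0.00292) and Fads6 by 0.47 ± 0.11 (adjusted p = 0.00667). Oxsm was also the 1 that was lower at 19-21 weeks, and none passed with age. Of 14 further genes of glycerolipid synthesis, Mogat1, which acylates monoacylglycerol, was higher at 11 weeks by 2.57 ± 0.49 (adjusted p = 0.00102), as was Gpd1l by 0.41 ± 0.14 (adjusted p = 0.0447). Agpat5 fell by 0.53 ± 0.11 (adjusted p = 0.00162) and Abhd5, the coactivator of adipose triglyceride lipase, by 0.33 ± 0.08 (adjusted p = 0.00672), and none of this list passed in the other comparisons. That made 2 of 14 genes each way at 11 weeks, beside the same 7.23% and 7.69% of all genes tested.

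Of 21 further regulators, 2 were higher and 2 lower at 11 weeks, against 7.23% and 7.69% of all genes tested. The counts were thus near those shares, and none passed elsewhere. Pparg, the nuclear receptor of fat storage, averaged 31.2 ± 6.61 CPM (SD, n = 5) in young Titan mice and 10.4 ± 3.10 CPM in young controls, with a log2 difference of 1.59 ± 0.30 (adjusted p = 0.000875). Mtor was higher by 0.63 ± 0.15 (adjusted p = 0.00724). Irs2, an insulin receptor substrate, fell by 1.09 ± 0.29 (adjusted p = 0.0138), and Scap, the escort of the SREBP factors, by 0.40 ± 0.13 (adjusted p = 0.0402).

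Of 20 tested lipid droplet and lipolysis genes, 9 were higher at 11 weeks and 8 at 19-21 weeks, with 0 lower, against 7.23% and 4.24% of all genes tested called higher. At 11 weeks the smallest p belonged to Mgll, the monoacylglycerol lipase, at 1.24 ± 0.17 (adjusted p = 3.6e-05), followed by Cidec, a droplet fusion protein, at 5.05 ± 0.80 (adjusted p = 0.000186) and Fitm1, of droplet formation, at 1.90 ± 0.35 (adjusted p = 0.00085). At 19-21 weeks Plin4, a droplet coat protein, was higher by 2.61 ± 0.47 (adjusted p = 0.00142), Ces1g, a carboxylesterase, by 1.46 ± 0.28 (adjusted p = 0.00256) and Cidec by 3.71 ± 0.76 (adjusted p = 0.00388). None passed with age in Titan liver, and in controls Ces1g fell. Among 15 genes of lipoprotein assembly and fatty acid uptake, 4 were higher at 11 weeks, led by the lipoprotein receptor Vldlr at 3.15 ± 0.38 (adjusted p = 1.3e-05), the fatty acid transporter Cd36 at 2.5 ± 0.46 (adjusted p = 0.000712) and Apoa4 at 1.97 ± 0.47 (adjusted p = 0.00609). The 2 that were lower were Lpl, the lipoprotein lipase, at -2.85 ± 0.44 (adjusted p = 0.000154), and Slc27a5. Lpl alone passed at 19-21 weeks, at -2.16 ± 0.44 (adjusted p = 0.0035), and none passed with age.

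**Figure D4:**
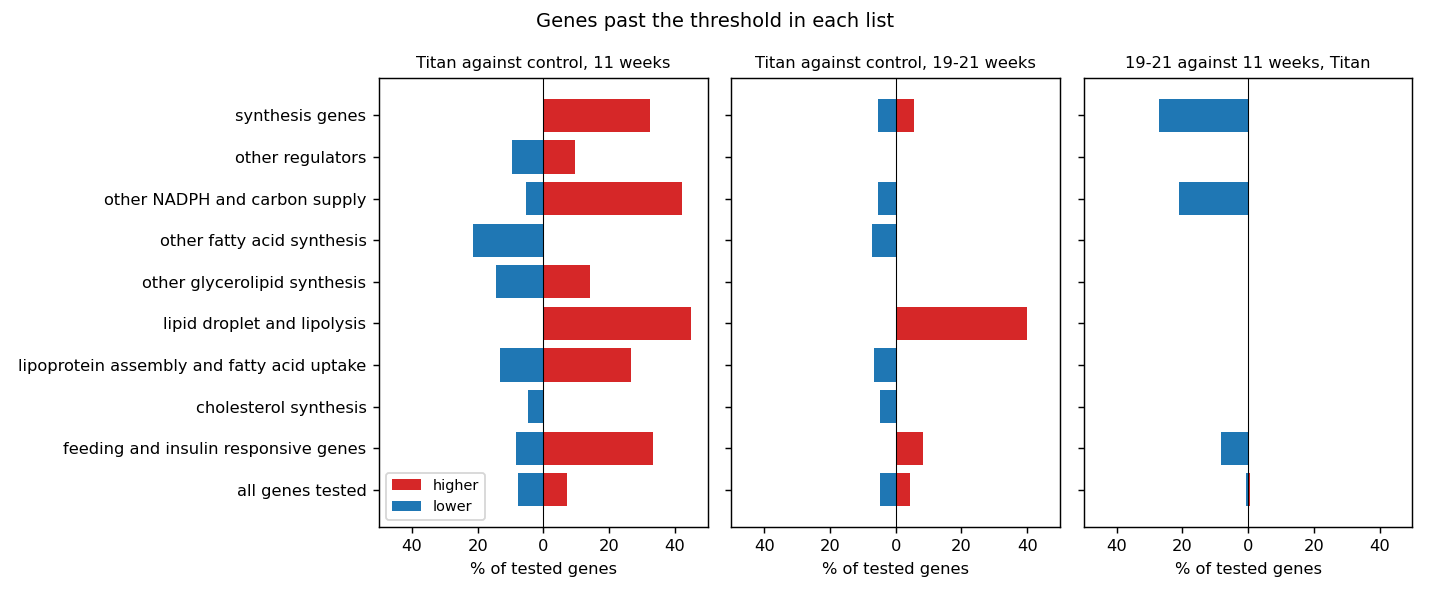
Percent of the tested genes of each list that were higher (red, to the right) or lower (blue, to the left) at an adjusted p under 0.05, in both line comparisons and in the age comparison of Titan mice. At 11 weeks 12 of 37 synthesis genes and 9 of 20 lipid droplet genes were higher; at 19-21 weeks 8 of 20 lipid droplet genes were, but only 2 of 37 synthesis genes.

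Markers of other cell types were read in the same libraries. Beside them, 7.23% of all genes tested were called higher and 7.69% lower at 11 weeks, and 4.24% and 4.88% at 19-21 weeks. Of the 7 hepatocyte markers found, Apoa1 and Cps1 were lower in young Titan mice, and the summed CPM ranged from 83522 to 102452 in them and from 79198 to 102477 in young controls. The 7 adipocyte markers summed to 15.6 to 22.6 CPM in young Titan mice and 14.7 to 18.5 CPM in young controls. Fabp4 of that list was higher at 11 weeks by 0.44 ± 0.15 (adjusted p = 0.0486), and the defining markers Adipoq, Plin1, Retn and Lep were at 0 reads in 12 to 19 of the 20 mice. Of 6 endothelial markers, Pecam1 and Kdr were lower at 11 weeks, and Lyve1 and Oit3 at 19-21 weeks. Their sum was 239 to 288 CPM in young Titan mice against 289 to 332 CPM in young controls, and 242 to 300.3 against 289 to 311 CPM in the older groups. The T cell gene Cd3e was higher in Titan mice at both ages, and the 6 lymphocyte markers summed to 3.06 to 5.78 CPM in young Titan mice against 1.46 to 1.83 CPM in young controls, and to 2.97 to 5.23 against 0.943 to 4.61 CPM in the older groups. Only Cd3e of the 6 passed the filter on low counts. It averaged 1.33 CPM over the 20 mice, against 0.157 to 0.541 CPM for the others. The sums therefore do not show that the list rose as a whole. Of 7 stellate markers Des was higher at 11 weeks, with sums of 293 to 438 against 312 to 363 CPM. The Kupffer cell and bile duct lists had 0 genes past the threshold in the line comparisons, with sums of 103 to 296 CPM and 14.8 to 63.8 CPM over all groups. Of the 5 pancreatic acinar markers, Cpa1, Prss2 and Pnlip were at 0 reads in all 20 mice, Cela2a was at 0 in 9 mice with at most 28 reads, and Amy2b was at 0 in 11 mice with at most 2 reads. Their sum was 0.122 to 2.36 CPM in young controls against 0 to 0.0840 CPM in young Titan mice, and 0.0903 to 0.671 against 0 to 0.340 CPM in the older groups. The part of these cell types in the results was not tested.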

How the data were processed

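Total RNA of 20 mouse livers was depleted of ribosomal RNA and made into strand-specific libraries, per the labels. The deposited files hold raw read counts per Ensembl gene, which the authors made with STAR 2.5.3a on GRCm38, as named in the submitters' processing notes; the column of sense-strand counts was used. Symbols, exons and positions came from GENCODE M21, and promoter windows from RefSeq. As in the study's methods, 109 histone genes and 1562 genes on chromosome Y were excluded. Genes passing edgeR's default filter (13783) were fitted with edgeR 4.0.16 (R 4.3.3) by the quasi-likelihood method, TMM scaling and 1 model over the 4 groups, with two-sided tests and Benjamini-Hochberg adjustment at 0.05. The 5 comparisons were the line at each age, the age in each line, and their interaction. Each p-value sets a difference between groups against the spread between mice within groups, estimated jointly over the 4 groups. In simulated data with known changes, 89.6% of 192 changed genes were found at 11 weeks and 83.9% of 192 at 19-21 weeks. Genes called without a planted change numbered 5 and 7. All planted log2 changes were of 1 or more in size, so these shares do not apply to smaller differences.

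Alternatives were DESeq2 1.42.0, other scaling, filters, strand and samples, a replicate block, a covariate and each mouse left out. Of 30 same-number pairs of mice, 4 deviated together with r over 0.1. Pairs with different numbers were not compared, so this cannot tell whether the replicate numbers pair the mice. The fit without both older Titan mice 1 and 4 was added after seeing the data. The genes and lists were chosen with earlier results of these data known. Every mouse's value was printed for genes past the threshold in any comparison and for Srebf1, Mlxipl, Thrsp, Acly, Fasn, Scd1 and Dgat2; of other lists, up to 3 genes each way, ranked by p, were given, and a few of them are not reported here. Figures were drawn with matplotlib 3.10.9.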

Additional observations from a re-analysis of the deposited data

Results flagged for a closer look

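In 13 of 148 combinations of gene and group, the highest or lowest of the 5 mice lay far from the nearest other mouse, by more than 0.71 of the whole range of the group. For normally distributed values chance gives about 1 in 20 such groups. Whether CPM values are so distributed was not tested, and genes that move together in 1 mouse are not independent, so 13 cannot be read as an excess. Older control 2 was high in Thrsp (677 CPM, nearest 234), Elovl1 (46.1 CPM, nearest 35.2) and Dgat2 (447 CPM, nearest 308). Older control 3 was low in Acly (311 CPM, nearest 570.5) and older control 4 was high in Elovl2 (1026 CPM, nearest 740.2). Among older Titan mice, mouse 1 was low in Elovl2 (535 CPM, nearest 738), mouse 3 was high in Agpat3 (219.9 CPM, nearest 192), and mouse 2 was high in the phosphatidate phosphatases Lpin1 (229 CPM, nearest 88) and Lpin2 (404 CPM, nearest 219). Young Titan mouse 1 was high in Lpin1 (148 CPM, nearest 104) and Dgat2 (355 CPM, nearest 274) and low in Agpat4 (0.138 CPM, nearest 0.695). Young control 1 was low in Gpat4 (141 CPM, nearest 164).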

How the results depend on the processing

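At 11 weeks the count of synthesis genes higher in Titan liver was 10 to 17 over all alternatives, 10 to 16 with 1 mouse left out. The count lower was 0, but 1 (Acss2) with only the groups compared, without older Titan mice 1 and 4 and without older Titan mouse 4, and 1 (Acsl4) without young control 2, hence 0 to 1 with 1 mouse left out. At 19-21 weeks the higher count was 2 or 3 under other settings and 1 to 2 with 1 mouse left out. The lower count of 2 became 0 with only the groups compared and 0 without older Titan mice 1 and 4, and was 1 to 3 with 1 mouse left out. With age in Titan liver the lower count of 10 was 6 with only the groups compared, 3 with the share of reads on genes as a covariate, 2 without older Titan mice 1 and 4, and 3 to 12 with 1 mouse left out. As an interaction it was 0, but 7 in DESeq2, 3 without the filter on low counts (Elovl6, Acaca and Fasn), and 0 to 2 with 1 mouse left out. Where a fit let Pnpla5 pass the filter on low counts, the counts at 11 weeks and with age in Titan liver include it. It passed only through young Titan mice, where it is high, so its calls add no support to these counts. The cause of these shifts was not tested. With the replicate number as a block, 5 genes fell with age in Titan liver, and Fads2 and Gpam lost their calls at 11 weeks; pairs correlated between -0.14 and 0.18. No value that had passed changed its direction under any alternative. RLE scaling changed mean levels by -0.460 to 0.977%, and exon lengths were 1.0 to 2.82 times the longest transcript, so levels per length depend on that choice. Older Titan libraries were the shallowest group, with a median of 9524930 reads on genes.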

Other observations

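Cholesterol synthesis, which SREBP2 is known to drive, was read beside fatty acid synthesis. Of 21 genes, 0 were higher and 1 was lower in Titan liver at 11 weeks, against 7.23% and 7.69% of all genes tested. This was the sterol methyl oxidase Msmo1, which fell by 0.86 ± 0.26 (SE, adjusted p = 0.0314). At 19-21 weeks 0 were higher and 1 was lower, against 4.24% and 4.88% of all genes tested. This was the sterol isomerase Ebp, which fell by 0.37 ± 0.08 (adjusted p = 0.00647). The median log2 fold change of the list was -0.23 at 11 weeks and -0.25 at 19-21 weeks, and none passed with age or as an interaction.

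Of 12 genes known to respond to feeding and insulin, 4 were higher and 1 was lower in Titan liver at 11 weeks. The shares over all genes tested were 7.23% and 7.69%. The fatty acid hydroxylase Cyp4a14 rose by 4.76 ± 1.01 (SE, adjusted p = 0.00251) and the hormone gene Fgf21 by 1.79 ± 0.48 (adjusted p = 0.0144), and Irs2 fell. Cyp4a14 measured 436, 305, 36.1, 13.6 and 48.3 CPM in young Titan mice 1 to 5. Mouse 4 was below young control 2 at 17.5 CPM, so the groups overlapped. Fgf21 alone passed at 19-21 weeks, at 3.09 ± 0.55 (adjusted p = 0.00113). It measured 16.5 CPM in older Titan mouse 4 and 3.53 to 4.84 CPM in the other older Titan mice. With age in Titan liver Cyp4a14 fell by 4.27 ± 0.99 (adjusted p = 0.0376), a comparison that uses the same young Titan mice. Igfbp1, which insulin lowers, measured 18.8, 11.5, 12.4, 31.9 and 6.03 CPM in older Titan mice 1 to 5, with mouse 4 the highest. The older controls ranged from 3.24 to 25.6 CPM and the young controls from 7.33 to 58.5 CPM. Older Titan mouse 4 was thus above every older control, though within the range of the young controls. The other older Titan mice lay within the range of the older controls. Igfbp1 was chosen for display after its values were seen, and its part in the low Scd1 of older Titan mice 1 and 4 was not tested.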
